A study of Mus musculus with 2 samples.

Results

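Among 21938 protein-coding genes, 8 were described here for the crowding of accessible sites around them: Bcl9l, Tab1, Bcdin3d, Faim2, Apba2, Ccr10, Cntnap1 and Plekhh3. They were chosen by their count of distal DNase peaks, meaning peaks centred more than 1 kb from every annotated transcript start, within 50 kb of the gene's own start in both libraries. That count is given as a description without a test. Windows of 50 kb that overlapped were joined, which placed the 8 genes in 5 loci, since Bcdin3d lies beside Faim2 and Ccr10, Cntnap1 and Plekhh3 lie together.

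DNase-seq digests nuclei with DNase I and sequences where the enzyme cut, so that stretches of DNA not wrapped in nucleosomes appear as peaks. The tissue was cerebellum from male B6CASTF1/J mice, a cross of the B6 and CAST strains, of 8 to 10 months of age, with no treatment. Both libraries form 1 group and carry biological replicate numbers 1 and 2, and each was made from a pool of 2 biosamples. Shared animals between the pools are not stated either way in the labels, and the replicate spread can be technical in part. Reads from the B6 and CAST alleles are not resolved. Of 61776 stricter peaks in replicate 1 and 71141 in replicate 2, 35366 and 44048 were distal. Signal, the authors' value per peak, moved in whole steps of 0.00714 and 0.00632, and if a step is 1 cut the median stricter peak had 196 and 152 cuts. Transcription start site (TSS) peaks, which overlap the 1 kb either side of any start of a gene, were present in both libraries at 10 of 10 granule cell marker genes, 4 of 10 for Purkinje cells, 6 of 10 for astrocytes, 1 of 10 for oligodendrocytes, 1 of 10 for microglia and 0 of 10 for vessels.

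Distal accessible sites include enhancers, silencers and insulators, which are bound by sequence-specific factors and act on promoters at a distance. A footprint is a short stretch within an accessible site that is cut less than its surroundings, as happens where a protein covers the DNA. Granule neurons are by far the most numerous cells of the cerebellum, so bulk tissue reads mostly their chromatin. A site that is open in few cells and one that is weakly open in many cannot be told apart in such tissue.

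The genes have unrelated roles. Bcl9l codes for a coactivator that works with beta-catenin in Wnt signalling, and Tab1 for the protein that binds and activates the TAK1 kinase. Bcdin3d codes for an RNA methyltransferase that acts on the 5′ phosphate end of RNAs, and Faim2 for a neuronal membrane protein that inhibits Fas-induced cell death. Apba2 encodes an adaptor of the X11 family that binds the amyloid precursor protein and takes part in synaptic vesicle release. Ccr10 encodes a chemokine receptor, Cntnap1 a protein of the paranodal junction between axon and myelin, and Plekhh3 a protein with PH, MyTH4 and FERM domains.

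Examples of the distal peaks of each locus, picked for their signal or footprints, are given here on the plus strand of mm10, with the bases that lie in footprints of both libraries in capitals. They are the strongest shared distal peak of each locus that does not overlap a UTR. Then come, for Bcdin3d-Faim2 and Bcl9l, the peaks with most shared footprints among the remaining shared distal peaks without UTR overlap. The Bcl9l one is given as a stretch of 300 bases from a peak in a coding exon. That peak had 5 shared footprints in replicate 1, and a Bcl9l peak left out by the UTR rule, 26.9 kb from the start, had 7.
Tab1 at chr15:80163341-80163620: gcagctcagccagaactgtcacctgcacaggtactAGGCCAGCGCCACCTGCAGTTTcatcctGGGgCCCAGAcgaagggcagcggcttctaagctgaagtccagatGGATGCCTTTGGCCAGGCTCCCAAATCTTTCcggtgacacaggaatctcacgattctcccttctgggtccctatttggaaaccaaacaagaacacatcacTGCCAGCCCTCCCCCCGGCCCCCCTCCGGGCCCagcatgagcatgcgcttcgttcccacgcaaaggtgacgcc
Bcl9l at chr9:44502141-44502300: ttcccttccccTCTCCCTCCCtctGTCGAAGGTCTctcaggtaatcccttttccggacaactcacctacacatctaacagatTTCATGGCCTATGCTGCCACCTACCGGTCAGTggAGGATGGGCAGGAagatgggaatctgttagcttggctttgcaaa
Apba2 at chr7:64510621-64510840: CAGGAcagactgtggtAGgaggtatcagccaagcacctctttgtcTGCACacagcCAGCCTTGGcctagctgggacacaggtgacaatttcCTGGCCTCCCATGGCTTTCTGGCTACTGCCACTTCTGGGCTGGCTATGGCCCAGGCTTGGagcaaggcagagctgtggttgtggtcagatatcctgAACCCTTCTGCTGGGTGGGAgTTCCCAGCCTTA
Bcdin3d-Faim2 at chr15:99469181-99469340: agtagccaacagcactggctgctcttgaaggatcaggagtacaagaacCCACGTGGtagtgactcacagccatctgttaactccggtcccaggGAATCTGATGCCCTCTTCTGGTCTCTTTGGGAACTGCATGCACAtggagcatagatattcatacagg
Ccr10-Cntnap1-Plekhh3 at chr11:101177041-101177260: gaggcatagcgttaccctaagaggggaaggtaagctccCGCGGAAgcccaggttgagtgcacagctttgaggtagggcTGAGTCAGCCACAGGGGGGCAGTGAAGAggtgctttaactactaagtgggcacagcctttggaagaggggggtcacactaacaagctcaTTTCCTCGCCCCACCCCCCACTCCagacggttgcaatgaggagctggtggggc
Bcdin3d-Faim2, most shared footprints, at chr15:99471121-99471360: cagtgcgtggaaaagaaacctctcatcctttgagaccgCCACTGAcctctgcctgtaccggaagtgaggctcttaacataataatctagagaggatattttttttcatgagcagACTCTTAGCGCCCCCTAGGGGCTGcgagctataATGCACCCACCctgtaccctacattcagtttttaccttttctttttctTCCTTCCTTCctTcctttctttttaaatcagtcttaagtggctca
Bcl9l, coding exon, at chr9:44505748-44506047: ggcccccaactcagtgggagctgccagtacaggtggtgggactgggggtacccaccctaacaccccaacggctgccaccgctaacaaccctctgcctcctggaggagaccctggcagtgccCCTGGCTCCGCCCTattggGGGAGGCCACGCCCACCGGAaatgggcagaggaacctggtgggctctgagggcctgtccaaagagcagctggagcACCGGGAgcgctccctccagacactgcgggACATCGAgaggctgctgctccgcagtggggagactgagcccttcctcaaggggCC

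Bcl9l, a gene of 29.1 kb on chromosome 9 (44482825 to 44511896, plus strand), had 37 distal peaks in replicate 1 and 45 in replicate 2. Tab1, 28.6 kb on chromosome 15 (80133127 to 80161707, plus strand), had 33 and 32. On the same chromosome Bcdin3d (99470079 to 99474730, minus strand) had 36 and 31, and Faim2 (99497012 to 99528165, minus strand) had 37 and 30. Apba2, which spans 252 kb of chromosome 7 (64501706 to 64753878, plus strand), had 34 and 30 around its outermost start. Ccr10 (101172997 to 101175443, minus strand), Cntnap1 (101170523 to 101190724, plus strand) and Plekhh3 (101162679 to 101171351, minus strand) start within 4.92 kb of one another on chromosome 11, and each had the same counts of 30 and 31. The libraries differed most at Bcl9l, with 41 ± 5.66 distal peaks (SD, n = 2), and least at Tab1 and the 3 genes on chromosome 11, with an SD of 0.707.

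In each library the median coding gene had 1 distal peak in its window, and 36.4% and 30.8% of coding genes had none. Only 11 coding genes, or 0.0501%, reached 30 in both libraries, while 79 reached 30 in replicate 1 and 50 in replicate 2. Besides the 8 genes these were Nfic, a gene of the nuclear factor I family of transcription factors, with 52 and 34, Rara, the retinoic acid receptor alpha gene, with 30 and 36, and Tubg2, a gamma-tubulin gene beside Plekhh3, with 30 and 31. Just outside lay Lrrc4b with 33 and 29 and the neighbours Stap2 and Mpnd with 39 and 29 each. These counts are the values that selected the genes, and the plot of counts in both libraries shows where they sit.

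**Figure D1:**
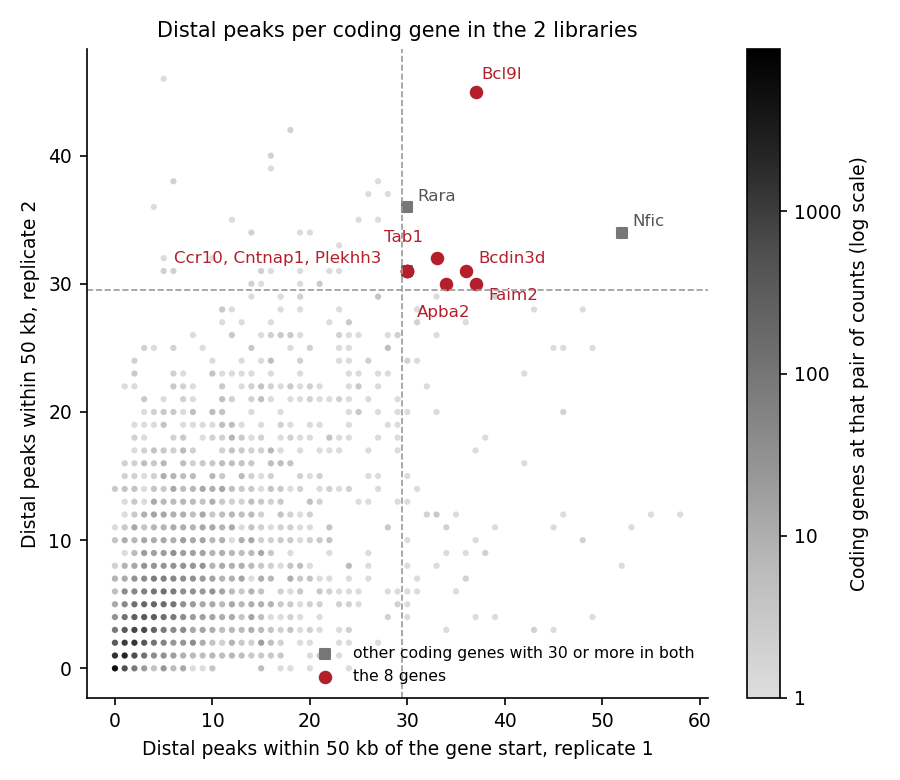
Distal peaks within 50 kb of each coding gene's start, with replicate 1 on the x axis and replicate 2 on the y axis; grey shade is the number of coding genes at a pair of counts (log scale) and the dashed lines mark 30. The 8 genes in red lie between 30 and 37 in replicate 1 and between 30 and 45 in replicate 2, and Bcl9l has the highest smaller count of all.

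Paralogues and partners of the 8 genes had counts near those of coding genes at large. Of 42 such genes, 9 had no distal peak in either library, and the median was 1 and 2. Of all 21938 coding genes, 6084 had none in either library. The highest was Cntn2, a contactin of the juxtaparanode beside the paranodal junction, with 23 and 25. Next came App, the amyloid precursor protein gene, with 19 in replicate 1 and 4 in replicate 2, and Apba3 with 5 and 16. The 4 first in the alphabet of those with none were Dicer1, Lef1, Map3k7, which encodes the TAK1 kinase, and Nlk. At App and Apba3 the replicates differed by more than their smaller count, with SDs of 10.6 and 7.78 around means of 11.5 and 10.5 (n = 2).

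Within the windows the peaks were packed closely. Summed over the 5 loci there were 175 distal peaks in replicate 1 and 173 in replicate 2, and the median distance from the centre of one to the next was 649 bp and 615 bp. By locus, median spacing was 551 and 545 bp at Bcl9l, 791 and 727 bp at Tab1, 618 and 529 bp at Bcdin3d-Faim2, 580 and 620 bp at Apba2, and 1120 and 674 bp at Ccr10-Cntnap1-Plekhh3. The chromosome 11 locus was the most widely spaced in replicate 1 but not in replicate 2, with 897 ± 316 bp (SD, n = 2). Distal peaks were also wider than elsewhere, with a median width of 244 and 260 bp in the loci against 189 and 200 bp over all distal peaks.

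**Figure D2:**
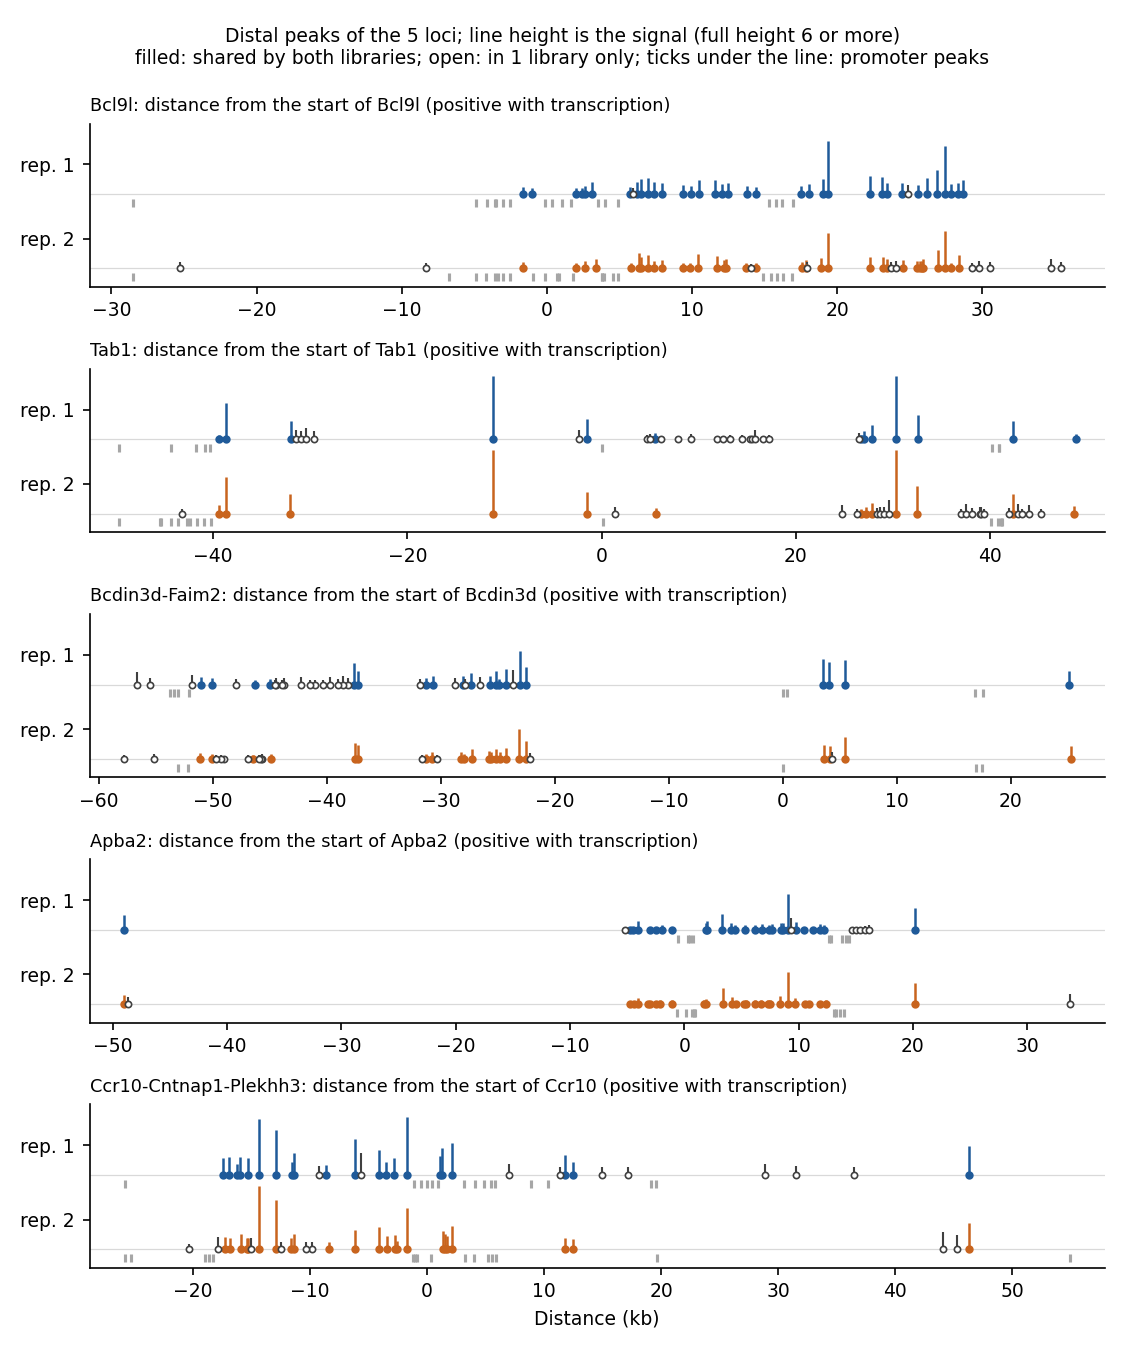
Position of each distal peak (x axis, distance in kb from the start of the first-named gene) in replicate 1 (blue, upper line) and replicate 2 (orange, lower line) of each locus, where line height is the signal, filled circles are peaks shared by both libraries, open circles peaks in 1 library and grey ticks promoter peaks. Shared clusters stand inside Bcl9l, Faim2 and Apba2, and unshared runs stand on either side of the end of Tab1. Faim2 also holds a mostly unshared run in replicate 1, with 8 of its 10 peaks unshared.

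At Bcl9l, Faim2 and Apba2 most distal peaks lay inside the gene itself. At Bcl9l 35 of 37 distal peaks in replicate 1 and 37 of 45 in replicate 2 fell within the gene body, and at Faim2 35 of 37 and 27 of 30. Apba2 held 25 of 34 and 20 of 30, all within the first 50 kb of a long gene, and the rest lay upstream. Cntnap1 held 16 of 30 and 20 of 31, whereas the compact Ccr10 and Plekhh3 held 3 and 4 and 4 and 2. Bcdin3d held only 2 and 3, so its place among the genes came from peaks upstream of it, 32 of 36 and 26 of 31, most of them in Faim2. Counted around any of its starts, Apba2 had 62 and 41 distal peaks and Faim2 40 and 34, while the counts of the other 6 genes were the same.

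At Tab1 the libraries had nearly equal counts from partly different peaks. The gene body held 19 distal peaks in replicate 1 and 8 in replicate 2, and the stretch beyond its end held 4 and 18. In replicate 1 a run of 6 peaks with no gap between centres over 1 kb stood 14.5 to 17.2 kb into the gene, of which 0 overlapped a peak of replicate 2 and 0 a stretch with a false discovery rate (FDR) of the cut rate under 0.05 there. In replicate 2 a run of 6 stood 37.0 to 39.4 kb from the start, just before Mgat3, and again 0 were shared, with 1 overlapping a stretch under 0.05 in replicate 1. In each library 13 of the locus's distal peaks were shared with the other.

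Apba2 carried a long run that was found in both libraries. In replicate 1, 17 peaks ran from 3.32 to 12.2 kb past the start, and in replicate 2, 16 peaks ran from 3.41 to 12.4 kb. Of these 16 and 16 overlapped a peak of the other library. Their signal was low, with a median of 0.528 and 0.389, and 9 and 4 of them overlapped a footprint. Runs of that length or more numbered 9 and 14 in the genome, and 85.3% and 85.6% of all runs of distal peaks were a single peak. The window was chosen for its many distal peaks, a choice that itself favours long runs.

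Bcl9l had 17 peaks in a row in replicate 2, from 22.3 to 30.5 kb, over the last part of the gene and past its end, of which 12 were shared. The stricter list holds some overlapping peaks, each counted here, and 6 of these 17 overlapped another, so that joining them leaves 13 stretches. At Apba2 joining leaves 16 stretches in replicate 1 and 13 in replicate 2. The longest Bcl9l run in replicate 1 held 9 peaks from 24.5 to 28.7 kb, of which 8 were shared. In Faim2, runs of 12 and 10 peaks were found in replicate 1, at 22.5 to 28.8 kb and 37.3 to 42.3 kb upstream of the Bcdin3d start, with 8 and 2 shared. The longest run of replicate 2 at that locus held 6 peaks. At Ccr10-Cntnap1-Plekhh3 the longest runs were 6 and 8 peaks over the end of Cntnap1 and the end of the neighbouring Ezh1, and 6 and 6 of these were shared.

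Distal peaks of the 5 loci lay in coding exons and UTRs more often than distal peaks at large. Coding exons held 25 and 25 of them, or 14.3% and 14.5%, against 5.58% and 4.03% of all distal peaks. UTRs held 10.3% and 12.1% against 3.18% and 2.67%, noncoding exons held 9.14% and 1.16% against 2.23% and 2.06%, and only 12% and 18.5% were intergenic against 37.4% and 38.2%. The loci are windows around coding starts, whereas all distal peaks include those far from genes. These shares were not compared with distal peaks near coding starts alone. Of the coding-exon peaks, 11 and 11 were at Ccr10-Cntnap1-Plekhh3 and 10 and 10 at Bcl9l, while Apba2 had 0 and 0, its peaks being in introns or upstream.

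The signal of these peaks was not high for distal peaks. Its median over the 5 loci was 0.799 in replicate 1 and 0.683 in replicate 2, against 1.11 and 0.790 for all distal peaks, a log2 difference of -0.47 and -0.21. With the authors' longer list of 99710 and 114935 peaks, which admits many weaker ones, the log2 difference was 0.16 and 0.27, so the direction depends on the list. In the stricter list 33.1% and 42.8% of the loci's distal peaks were above the median of all distal peaks.

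The loci differed widely among themselves. Apba2 was the weakest, with a median signal of 0.468 and 0.395, which is the 14.2 and 18.7 percentile of all distal peaks, and 12 of its 34 and 8 of its 30 peaks were in the lowest 10% of signal. Between the extremes lay Tab1 with 0.571 and 0.648, Bcdin3d-Faim2 with 0.742 and 0.550 and Bcl9l with 1.02 and 0.683. Ccr10-Cntnap1-Plekhh3 was the strongest, with 1.57 and 1.22, at the 65.9 and 68.6 percentile, and 0 of its peaks in either library were in the lowest 10%. The ranges of Apba2 and Ccr10-Cntnap1-Plekhh3 overlapped peak by peak, from 0.128 to 3.40 and 0.728 to 5.47 in replicate 1 and from 0.202 to 3.09 and 0.506 to 7.02 in replicate 2, while their medians kept the same order in both libraries. If a step is 1 cut, the median Apba2 peak had 65.5 and 62.5 cuts, for which the counting error is at least 12.4% and 12.6%.

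**Figure D3:**
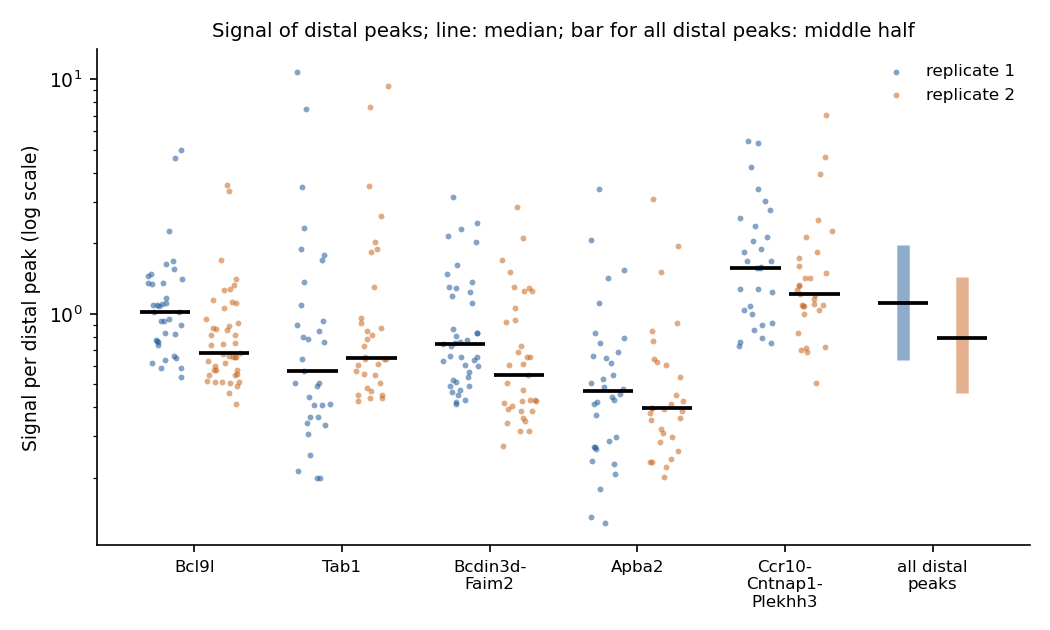
Signal of each distal peak (y axis, log scale) by locus in replicate 1 (blue) and replicate 2 (orange), with a black line at the median and, at the right, a bar over the interquartile range of all distal peaks. Apba2 has the lowest median, 0.468 and 0.395, and Ccr10-Cntnap1-Plekhh3 the highest, 1.57 and 1.22.

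Few peaks stood out at each locus. The strongest, shown first above, lies 30.4 kb past the Tab1 start, between the end of the gene and Mgat3, with a signal of 10.8 in replicate 1 and 9.37 in replicate 2 (10.1 ± 0.982, SD, n = 2) at the 99.7 and 99.8 percentile. A second strong Tab1 peak lies 11.2 kb upstream, between Syngr1 and Tab1, with 7.44 and 7.64. The median of the Tab1 locus was 0.571 and 0.648, so a pair of very strong peaks stands among many weak ones. In the printed sequence the exact motif matches, to CAGATG, an E-box that NEUROD-type factors bind, and to the EGR and NRF1 consensus, have 1, 0 and 0 of their bases in a footprint of both libraries.

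The strongest Bcl9l peak, in an intron 19.4 kb from the start, had 5.01 and 3.33, and a peak 27.5 kb from the start that overlaps a UTR had 4.60 and 3.55. At Apba2 the strongest peak, 9.03 kb into the gene and inside the long run, had 3.40 and 3.09, at the 90.3 and 92.8 percentile. It held 7 and 6 footprints, and 113 of its 220 printed bases lie in footprints of both libraries, the most of the 5. Neither the sequence of this strongest Apba2 peak nor that of the strongest Bcl9l peak holds an exact match to any of the 15 motifs searched. The Bcl9l coding-exon sequence holds a match to the SP and KLF motif, CCGCCC, with all 6 bases in a footprint of both libraries. Its match to the E-box CAGCTG has 0.

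At Bcdin3d-Faim2 the strongest shared peak overlaps a UTR of Faim2 and had 3.15 and 2.85. The strongest one shown lies between Nckap5l and Bcdin3d, 5.47 kb from the Bcdin3d start, and had 2.31 and 2.10. Its neighbour with 5 shared footprints, in a noncoding exon at Bcdin3d, had 2.43 and 1.30 and holds an exact match to the CTCF core, GCCCCCT on the plus strand, all 7 bases of which lie in a footprint of both libraries, while the overlapping stricter peak of replicate 2 ends at 99471200, before the match. An ETS match in the same sequence, and the AP-1 and CAGATG matches in the stronger peak beside it, have 0 bases in a footprint of both. CTCF is the factor that binds insulators and the ends of chromatin loops. At Ccr10-Cntnap1-Plekhh3 the strongest shown, in an intron of Cntnap1 and 1.71 kb upstream of Ccr10, had 5.47 and 3.96, and its AP-1 match, TGAGTCA, likewise has all 7 bases in a footprint of both. A peak over a UTR near the end of Cntnap1 had 5.37 and 7.02, and so was higher in replicate 2.

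Sharing between the libraries differed between the loci. Over all distal peaks 72.5% of those in replicate 1 and 58.2% of those in replicate 2 overlapped a peak of the other library by 1 bp or more, and over the 5 loci 66.3% and 69.4% did. Bcl9l had 35 of 37 (94.6%) and 34 of 45 (75.6%) shared, and Apba2 27 of 34 (79.4%) and 28 of 30 (93.3%). Ccr10-Cntnap1-Plekhh3 had 21 of 30 (70.0%) and 23 of 31 (74.2%). Bcdin3d-Faim2 had 20 of 41 (48.8%) and 22 of 35 (62.9%), and Tab1 13 of 33 (39.4%) and 13 of 32 (40.6%). Tab1 was below the genome-wide share in both libraries, Bcl9l and Apba2 were above it in both, and the other loci were below it in replicate 1 and above it in replicate 2.

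**Figure D4:**
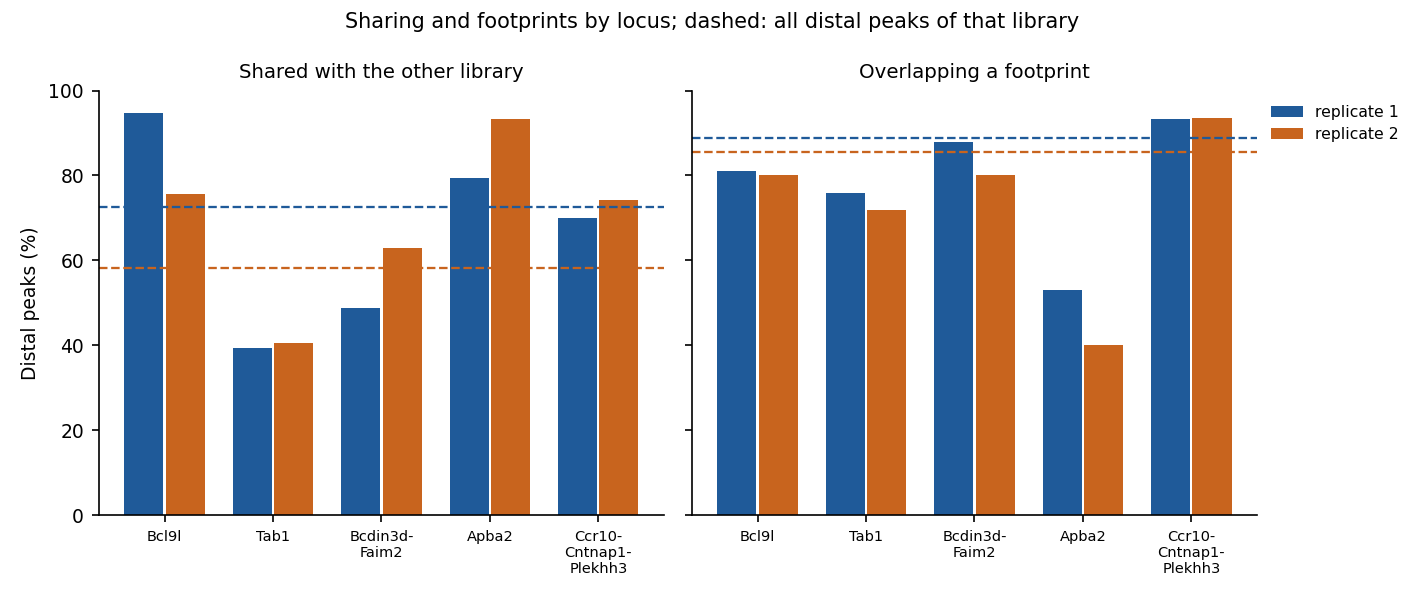
Percent of distal peaks (y axis) that overlap a peak of the other library (left) or a footprint of the same library (right), by locus, in replicate 1 (blue) and replicate 2 (orange), with dashed lines at the share over all distal peaks. Tab1 has the lowest sharing, 39.4% and 40.6%, and Apba2 the lowest share with a footprint, 52.9% and 40.0%.

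Apba2 combined low signal with high sharing. Among all distal peaks sharing falls with signal, from 97.1% and 92.1% in the highest quartile to 39.9% and 26% in the lowest. In that lowest quartile 17 of 23 Apba2 peaks in replicate 1 and 20 of 20 in replicate 2 were shared. The other 4 loci together had 10 shared of 36 in replicate 1 and 4 of 21 in replicate 2. Of these Tab1 had 4 of 17 and 0 of 5, and Bcdin3d-Faim2 3 of 15 and 4 of 15. The Apba2 window was chosen for its many peaks in both libraries, and closely packed peaks can more readily overlap by 1 bp. Its shares were not compared with those of equally dense windows elsewhere.

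Peaks without a partner were weaker as a whole, and some had a trace in the other library. Median signal was 1.09 and 0.838 for shared and 0.60 and 0.575 for unshared distal peaks of the 5 loci, though the 2 unshared peaks of Apba2 in replicate 2 had a median of 0.771 against 0.389 for those shared. Of the 59 unshared peaks in replicate 1, 20 (33.9%) overlapped a stretch with an FDR under 0.05 in replicate 2, and of the 53 in replicate 2, 32 (60.4%) did so in replicate 1. Over all distal peaks these shares were 43.5% and 49.2%. At Bcl9l 10 of the 11 peaks found only in replicate 2 had such a stretch in replicate 1, and at Tab1 4 of 19 had. Of the window sequence itself, 28.0% and 34.1% was under 0.05 at Bcl9l, 25.3% and 27.9% at Tab1, 16.2% and 14% at Bcdin3d-Faim2, 21.7% and 20.3% at Apba2 and 25.3% and 26.3% at Ccr10-Cntnap1-Plekhh3, against 1.28% and 1.52% of the genome. The windows were chosen for their many stricter peaks, each of which holds a base under 0.001. High shares of the windows therefore follow from that choice.

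Where a peak was shared, its signal was close in both libraries. Over the 116 shared peaks of replicate 1 in the loci, the median log2 ratio of replicate 1 to replicate 2 was 0.24, against 0.28 over all 25651 shared distal peaks, an offset between the scales of the libraries. Across these peaks, which lie in the same pair of libraries, log2 signals had a Pearson correlation of 0.946 and a Spearman correlation of 0.931. Over all 25651 shared distal peaks these correlations were 0.874 and 0.864. Tab1 differed from the others, with a median ratio of -0.08 over 13 peaks of which 4 were higher in replicate 1. At the other loci the median lay between 0.14 at Apba2 and 0.34 at Bcl9l.

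**Figure D5:**
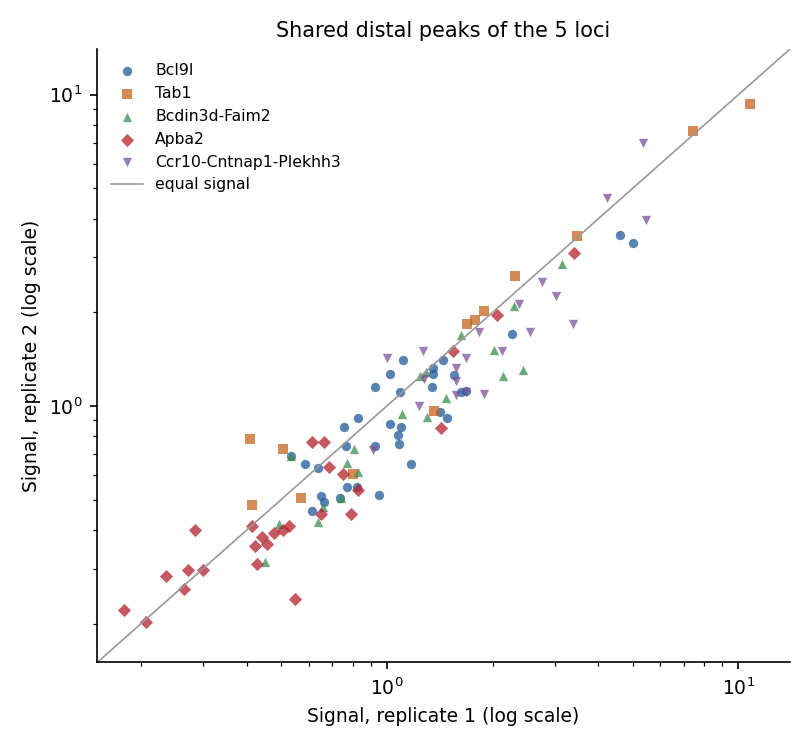
Signal of the 116 shared distal peaks in replicate 1 (x axis) and replicate 2 (y axis), both on log scales, by locus, with the line of equal signal in grey. Of all points 86 lie below the line, that is, higher in replicate 1, and of the 13 Tab1 points 4 do.

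Fewer of the loci's distal peaks held a footprint than of distal peaks at large, chiefly at Apba2. Of all distal peaks 88.9% and 85.5% overlapped a footprint of their own library, and of those in the 5 loci 78.3% and 74.0% did. Ccr10-Cntnap1-Plekhh3 had 28 of 30 (93.3%) and 29 of 31 (93.5%), Bcdin3d-Faim2 36 of 41 (87.8%) and 28 of 35 (80.0%), Bcl9l 30 of 37 (81.1%) and 36 of 45 (80.0%), and Tab1 25 of 33 (75.8%) and 23 of 32 (71.9%). Apba2 had 18 of 34 (52.9%) and 12 of 30 (40.0%), below every other locus in both libraries. Without Apba2 the share over the loci was 84.4% and 81.1%. In all 5 loci peaks with a footprint had the higher median signal in both libraries. At Apba2 it was 0.517 against 0.443 and 0.702 against 0.370. In the highest quartile of signal 100% and 100% of the loci's peaks held a footprint against 99.8% and 99.7% of all. In the next quartile 97.1% and 95.7% did against 97.3% and 95.4%. The loci were lower in the second lowest quartile, with 82.8% and 67.2% against 91.1% and 85.6%. In the lowest quartile 54.2% and 41.5% held one against 67.3% and 61.1%.

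Each distal peak held on average 3.07 and 2.79 footprints in the loci against 2.79 and 2.64 over all distal peaks, but, the loci's peaks being wider, footprints per 100 bp numbered 1.12 and 0.882 against 1.39 and 1.27. Ccr10-Cntnap1-Plekhh3 had 1.55 and 1.18 and Apba2 0.754 and 0.350. Of the footprints in these peaks, 42.0% in replicate 1 and 49.6% in replicate 2 overlapped a footprint of the other library, against 55.8% and 51.2% over all distal peaks. The lowest share was again at Tab1, with 28.6% and 32.6%, and the highest at Bcl9l, with 53.2% and 58.6%. The most footprints in a single distal peak of the loci were 17, in a replicate 1 peak of 1080 bp over a coding exon of Ccr10, and 8 of them were shared.

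Among the promoters, all 8 genes had a TSS peak in both libraries. Cntnap1 and Plekhh3, which start 0.828 kb apart on opposite strands, had the same strongest peak, with a signal of 7.47 in replicate 1 and 7.36 in replicate 2. Bcl9l followed with 6.02 and 4.12, then Tab1 with 4.93 and 2.98, Faim2 with 4.30 and 3.05, Bcdin3d with 4.34 and 2.60, Apba2 with 3.57 and 2.24 and Ccr10 with 2.56 and 2.10. All 8 were lower in replicate 2, which is the direction of the offset between the libraries. In that order neighbours from Bcl9l to Ccr10 differed by less than their spread (3.95 ± 1.38 against 3.68 ± 0.889 for Tab1 and Faim2, SD, n = 2). That spread includes the offset. Within each library Bcl9l was above Tab1, Faim2 and Bcdin3d, and Apba2 and then Ccr10 were below them. The order of Tab1, Faim2 and Bcdin3d changed between the libraries. The Ccr10 value in replicate 1 comes from the wide peak over its coding exon, which is centred 1.26 kb from the start and so also counts as distal.

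Most coding genes around them were accessible at their start too, though these neighbours are few. A TSS peak was present at 58.4% and 57.2% of all coding genes. Of 15 coding genes with a start in the 5 loci, the 8 included, it was present at 14 in replicate 1 and at 14 in replicate 2. All 8 are among these 14, so the share mostly reflects the 8 genes themselves. The exception was Foxr1, a forkhead factor gene upstream of Bcl9l, with no TSS peak and 0 and 0 distal peaks in its body. Upk2, a gene of bladder epithelium in the same locus, had 3.62 and 1.43. Cxcr5, a chemokine receptor gene whose end meets that of Bcl9l and whose start lies outside the window, had no TSS peak and 0 and 5 distal peaks in its body.

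The Tab1 locus held Rpl3, a ribosomal protein gene with a TSS signal of 12 and 9.70, Syngr1, a synaptic vesicle gene with 4.02 and 2.19, and Mgat3, a glycosyltransferase gene with 1.93 and 1.45. Syngr1 held 7 and 3 distal peaks in its body and Mgat3 2 and 7. At Bcdin3d-Faim2 the other coding gene was Nckap5l, with 3.27 and 2.22 and 1 and 1 distal peaks. Apba2 had no other coding start in its window. On chromosome 11 Tubg2 had 3.15 and 2.04, and the genes at either edge, Tubg1 and the Polycomb methyltransferase gene Ezh1, had 12.3 and 8.92 and 7.05 and 4.0, with 0 and 0 and 4 and 5 distal peaks inside.

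The sequences under the distal peaks were richer in G and C than those of distal peaks at large. In the 200 bp around peak centres the median GC content was 56.5% and 55.5% in the loci against 53.5% and 51.5%. It was highest at Bcl9l, with 59.0% and 57.5%, and lowest at Apba2, with 52.0% and 51.0%. CpG pairs were most frequent at Ccr10-Cntnap1-Plekhh3 and least at Apba2, with a mean of 3.08 and 2.77 per 100 bp in the former and 1.29 and 1.33 in the latter, against 2.13 and 1.75 over all distal peaks. Repeat-masked sequence made up 10.3% and 10.0% in the loci, 11% and 9.32% at Apba2, and 9.18% and 9.22% over all distal peaks.

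Exact matches to 15 short motifs were counted in those 200 bp on both strands. In both libraries 2 motifs were more frequent in the loci than over all distal peaks and 7 were less frequent. The more frequent were the E-box CAGCTG, in 18.3% and 20.8% of peaks against 17.3% and 15.8%, and the CTCF core AGGGGGC, in 10.3% and 8.09% against 9.38% and 7.29%. By count CAGCTG was in 32 of 175 and 36 of 173 peaks and the CTCF core in 18 and 14. The CTCF shares, and that of CAGCTG in replicate 1, lay close to those of all distal peaks. Most of the loci's peaks are shared, so the same direction in both libraries is not independent. The less frequent included the nuclear factor I half-site TTGGCA, in 16.6% and 17.9% against 21.4% and 24.9%, the E-box CAGATG, in 22.3% and 23.7% against 26.5% and 28.8%, the ZIC motif CAGCAGG, in 10.9% and 14.5% against 16.9% and 15.8%, and the SOX motif ACAATG, in 3.43% and 5.78% against 8.00% and 9.01%. The other 3 say little: the GATA motif AGATAA was in 2.29% and 6.94% against 5.62% and 6.97%, nearly equal in replicate 2. The CRE motif TGACGTCA and the MEF2 motif CTATTTATA had 0 matches among the 175 and 173 peaks, but occur in under 1% of all distal peaks, so that 0 is too few to compare. In the central 100 bp, 0 motifs were more frequent and 9 less frequent in both libraries, and the CTCF core turned to less frequent, with 6.86% and 1.73% against 7.43% and 5.62%. The remaining motifs searched, AP-1 (TGANTCA), SP and KLF (GGGCGG), RFX (GTTGCCA), EGR (GCGTGGG), ETS (CCGGAAG) and NRF1 (GCGCATGC), did not take the same direction in both.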

How the data were processed

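Cerebellum DNase-seq was taken as deposited: for each library 2 peak lists with the authors' signal per peak, a table of cut-rate q-values (FDR) that lists those under 0.05, and footprints that all carry the same deposited value of 0.01. The assembly is mm10 per the labels. The aligner and the peak and footprint callers, not given in the sources used here, remain unknown, as does the number of reads. Throughout, the stricter list was used, in which every peak (100%) held a base with a deposited FDR under 0.001, against 64.1% and 63.9% of the longer list.

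Positions were set against GENCODE mouse release 21 (21938 coding genes), and sequences were read from RefSeq's GRCm38 (mm10). The peak's middle served as its centre. Overlap meant 1 bp or more. A run joined peaks whose centres lay within 1 kb. Python 3.11.15, numpy 2.4.6 and pandas 2.3.3 were used, and the counting functions were tested on simulated data. The genes, lists, motifs and settings were chosen with earlier results of these data known. With 2 libraries in 1 group and genes picked by this readout, no test was made. Values are given as replicate 1 and then replicate 2, SDs are over both (n = 2), and counting errors are lower limits. Neighbouring genes named are those with most distal peaks or no TSS peak, up to 4 and 3 per locus, partners are the 4 highest (1 of them not reported here) and 4 lowest, and the genes most alike are the 5 with the next highest smaller count.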

Additional observations from a re-analysis of the deposited data

How the results depend on the processing

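Of 66 values under other settings, 50 stayed within the spread between the libraries, or within 1.5 times for counts. The 66 include values of 1 library alone, which for shares, signal and spacing always lie within that spread, so they say nothing about stability. The log2 difference of signal from all distal peaks, -0.34 as the mean of both libraries, turned to 0.21 with the longer peak list, which by its make holds more weak peaks. The median count per gene, 32.3, fell to 13.5 with peaks within 500 bp joined and to 9 with the upper 50% of signal alone. Sharing, 67.8%, became 65.6% with distal set at over 2 kb, 71.5% and 63.4% with windows of 25 and 100 kb, 65.0% with an overlap of 50% of the shorter peak, and, chosen after seeing the data, 63.7% without the Apba2 locus and 74.2% without the Tab1 locus. The share with a footprint, 76.1%, became 79.2% at over 2 kb and 82.8% without Apba2. Median spacing, 632 bp, became 605 and 680 bp with windows of 25 and 100 kb, 737 bp with overlapping peaks joined and 598 bp without Tab1. Taking 1 library at a time gave 31 to 33.5 peaks per gene, 66.3% to 69.4% shared, 74.0% to 78.3% with a footprint, a log2 difference of -0.47 to -0.21, a spacing of 615 to 649 bp, 14 of 15 coding genes with a TSS peak and 9 to 11 of 15 motifs less frequent, against 7 in both. With TSS peaks within 0.5 kb, 13 of the 15 coding genes with a start in the loci, the 8 included, had one. Except where the make of a setting shows it, the cause was not tested. What depth limits was not tested, since no setting varied it. No paired analysis was possible because both libraries form 1 group.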
